A study of Homo sapiens with 12 samples.

Results

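The genes described here carry names of the form LINC followed by a number, the placeholder names given to long intergenic noncoding RNAs that have no better name. They were chosen by that name and by their counts in these samples: a gene was kept when 3 or more of the 12 samples each had 10 counts or more for it. Of 651 such genes in the table, 122 were kept, out of 63677 genes of all kinds in the table and 17092 genes that pass the same count rule. The last ones in were LINC00422, LINC00638 and LINC00624, whose third-highest count was 10, and among the 5 just outside, at 9, were LINC01160, LINC00665 and LINC00310. The count rule used the values described below, and 11 of the 122 would not have passed it without the samples of a particular group, so that a difference in those 11 was partly built in.

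A long noncoding RNA is transcribed, spliced and polyadenylated much like a messenger RNA but is not known to be translated. Some act where they are made, on the neighbouring gene, and others bind proteins or microRNAs elsewhere in the cell. Many are made in small amounts and in few cell types, and several LINC names have since been replaced when a short protein was found. The name is thus only a first guess at what a gene is: of the 113 genes that could be placed on GRCh37 by their Ensembl identifier, 37 now have another symbol in GENCODE 44 and 15 are typed there as protein-coding. Others, among them LINC00674, LINC00680 and LINC00694, are typed there as transcribed pseudogenes.

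The samples came from Huh7, an established line of human hepatocellular carcinoma cells, and formed 4 groups of 3. Untreated cells received medium only, and the others were treated for 6 h with graphene oxide (GO) at 400 µg/mL, GO to which the ginseng saponin ginsenoside Rg3 was conjugated (GO-Rg3), also at 400 µg/mL, or with GO-Rg3 that was loaded with the topoisomerase inhibitor doxorubicin (GO-Rg3-DOX), here at 100 µg/mL. All groups are thus the same cell line in the same medium, every treated group carries GO, and no group here received Rg3 or doxorubicin without it; cells given free doxorubicin are not analysed here. GO-Rg3-DOX was given at a lower dose than GO-Rg3, so it was compared with untreated cells alone.

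Levels are given as CPM, a count relative to the TMM-scaled total of its library. Libraries held 27802871 to 38877420 counts, so 3 counts correspond to between 0.0706 and 0.124 CPM. The share of counts from mitochondrial genes was 5.81% ± 0.49 in untreated samples and 7.24% ± 0.30 with GO-Rg3, against 17.0% ± 6.3 with GO and 15.4% ± 3.5 with GO-Rg3-DOX (mean ± SD, n = 3), and GO replicate 1 (24.1%) and GO-Rg3-DOX replicate 1 (19.4%) stood apart. The mitochondrial share moved with both groups in which most LINC RNAs were called, and its part in the results was not tested. All 8 liver cell markers examined were measured, with ALB, the gene of serum albumin, at 4139 CPM in untreated cells. They summed to 21397 to 21595 CPM in untreated samples, 13248 to 16221 with GO, 16450 to 19918 with GO-Rg3 and 27816 to 32928 with GO-Rg3-DOX, and AFP, the gene of alpha-fetoprotein, was called lower with GO (log2 fold change -1.07). The part of these sums in the results was not tested. The 4 fibroblast markers summed to 2.03 to 2.70 CPM in untreated, 2.47 to 3.31 with GO, 1.93 to 2.81 with GO-Rg3 and 4.88 to 5.77 with GO-Rg3-DOX. The 3 leukocyte markers summed to 1.18 to 1.61, 1.34 to 1.61, 0.964 to 1.49 and 3.13 to 3.74 CPM in the same order, most of it CD14, while PECAM1, a defining endothelial marker, had no count in any sample and the 3 endothelial markers together stayed at or below 0.700 CPM.

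The sequences that bear on the results come first. LINC00657, now called NORAD, is known to bind PUM2, an RNA-binding protein that represses messenger RNAs carrying the letters TGTANATA. Its single-exon transcript of 5401 bases (GRCh37, chr20:34633540-34638940, minus strand) held this motif 15 times on the sense strand, or 2.78 times per kb. Of the other 112 genes with a transcript sequence, 98 held none and the most in any was 2, in LINC00886, LINC00893 and LINC00938. The stretch of 200 bases with the most copies is printed from base 2514 to 2713 of the transcript, with 3 copies of the motif in capitals.

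LINC00657, chr20:34636228-34636427, minus strand: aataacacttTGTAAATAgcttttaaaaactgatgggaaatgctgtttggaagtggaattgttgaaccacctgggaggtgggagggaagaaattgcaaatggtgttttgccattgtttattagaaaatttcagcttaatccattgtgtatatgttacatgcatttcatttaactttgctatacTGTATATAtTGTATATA

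Promoters are shown for the RNAs with the highest CPM in untreated cells among those lower with GO-Rg3-DOX (LINC00657, LINC00261 and LINC00511), for a pair that were higher with it (LINC00672 and LINC00176) and for LINC00482, which was higher with GO. They are RefSeq's, on GRCh38.p14, and run from 250 bases before the annotated start to 50 bases after it. Capitals mark, on either strand, the TATA box TATAAA, the CCAAT box, the core GCGTG bound by the hypoxia-inducible factors and the dioxin receptor, the AP-1 site TGACTCA, the cAMP response element TGACGTCA, the E-box CACGTG or the GC box GGGCGG.

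LINC00657 (NORAD), chr20:36050911-36051210, minus strand: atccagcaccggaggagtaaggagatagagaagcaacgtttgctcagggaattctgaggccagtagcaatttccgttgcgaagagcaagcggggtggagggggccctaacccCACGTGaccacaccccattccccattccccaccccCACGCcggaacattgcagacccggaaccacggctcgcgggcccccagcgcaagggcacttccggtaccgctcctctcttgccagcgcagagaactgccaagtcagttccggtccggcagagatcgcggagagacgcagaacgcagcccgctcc
LINC00261, chr20:22578593-22578892, minus strand: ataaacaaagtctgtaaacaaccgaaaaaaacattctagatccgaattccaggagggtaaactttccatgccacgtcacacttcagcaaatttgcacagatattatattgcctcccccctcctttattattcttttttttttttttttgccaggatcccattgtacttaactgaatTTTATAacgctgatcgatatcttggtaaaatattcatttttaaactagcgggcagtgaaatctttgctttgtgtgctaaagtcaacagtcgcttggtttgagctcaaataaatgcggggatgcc
LINC00511, chr17:72640423-72640722, minus strand: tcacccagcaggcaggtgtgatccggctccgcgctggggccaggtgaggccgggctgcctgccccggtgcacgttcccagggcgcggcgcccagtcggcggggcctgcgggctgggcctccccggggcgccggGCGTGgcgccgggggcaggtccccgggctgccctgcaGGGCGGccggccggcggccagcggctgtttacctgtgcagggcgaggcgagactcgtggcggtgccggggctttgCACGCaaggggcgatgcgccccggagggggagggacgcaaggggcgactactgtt
LINC00672 (LASP1NB), chr17:38925364-38925663, plus strand: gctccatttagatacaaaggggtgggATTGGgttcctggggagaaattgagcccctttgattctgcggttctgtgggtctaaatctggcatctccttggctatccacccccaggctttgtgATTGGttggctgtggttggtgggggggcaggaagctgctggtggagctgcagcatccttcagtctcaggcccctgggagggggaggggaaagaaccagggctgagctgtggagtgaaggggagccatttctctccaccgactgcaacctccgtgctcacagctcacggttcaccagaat
LINC00176 (C20orf204), chr20:64035932-64036231, plus strand: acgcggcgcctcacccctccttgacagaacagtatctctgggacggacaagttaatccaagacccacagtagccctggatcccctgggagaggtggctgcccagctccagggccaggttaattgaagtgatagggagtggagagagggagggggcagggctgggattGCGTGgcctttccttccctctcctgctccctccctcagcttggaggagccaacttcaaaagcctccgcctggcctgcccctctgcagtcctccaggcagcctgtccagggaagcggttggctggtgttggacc
LINC00482, chr17:81309199-81309498, minus strand: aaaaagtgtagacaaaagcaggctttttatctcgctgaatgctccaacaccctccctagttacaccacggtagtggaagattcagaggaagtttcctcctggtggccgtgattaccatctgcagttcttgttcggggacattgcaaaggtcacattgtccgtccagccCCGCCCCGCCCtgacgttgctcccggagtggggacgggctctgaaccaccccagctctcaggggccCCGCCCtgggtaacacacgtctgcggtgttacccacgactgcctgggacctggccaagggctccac

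The LINC00657 promoter held 1 CACGTG, which MYC and USF proteins can bind, and 1 GCGTG, and that of LINC00511 held 2 GCGTG and 1 GGGCGG, with a GC content of 78%. That of LINC00261 was AT-rich, with a GC content of 37% and 1 TATAAA on the opposite strand. LINC00672 had 2 CCAAT boxes, LINC00176 1 GCGTG, and LINC00482 3 GGGCGG, of which a pair share a letter. A promoter was found for 82 of the 122 genes. GCGTG was held by 9 of the 17 promoters of RNAs lower with GO-Rg3-DOX (52.9%), by 2 of the 8 of those higher with it (25%), by 37.8% of the 82 and by 36.5% of all 35116 promoters. CCAAT was in 3 of the 17 (17.6%) and 5 of the 8 (62.5%), beside 40.2% of the 82 and 34.6% of all, and CACGTG was in 4 of the 17 (23.5%) and 3 of the 8 (37.5%), beside 11.0% and 7.26%. GGGCGG was split as GCGTG was, in 9 of the 17 (52.9%) and 2 of the 8 (25%), beside 45.1% of the 82 and 45.0% of all. TATAAA was in 9.76% of the 82 and 11.5% of all promoters, TGACTCA in 7.32% and 4.95%, and TGACGTCA in 2.44% and 1.85%. The median number of CpG pairs was 23 in the 17, 6 in the 8 and 14 in all promoters. These are matches of letters in a few promoters and were not tested.

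In untreated cells the LINC RNAs were a small part of the RNA. Together they took 0.104% ± 0.0012 of the counts, and the median RNA of the 122 averaged 1.38 CPM over the 12 samples. Per kb of annotated exon, the level in untreated cells was highest for LINC00888 at 50.3 ± 4.6 CPM per kb, LINC00657 at 43.6 ± 0.37 and LINC00493 at 40.8 ± 1.5, followed by LINC00261 at 27.6 ± 1.3 (mean ± SD, n = 3). LINC00888 and LINC00657 differed by less than 2 SD of the former, whereas LINC00261 stood below these 3 by more than their spread. LINC00888 rests on only 421 bases of exon, so its value per kb depends on that annotation. LINC00511 is spread over 27664 bases of annotated exon and came to 1.90 CPM per kb.

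The summed level of the 122 RNAs was 952 ± 4.9 CPM in untreated cells, 984 ± 35 with GO, 927 ± 85 with GO-Rg3 and 530 ± 12 with GO-Rg3-DOX (mean ± SD, n = 3). The GO-Rg3-DOX samples lay below all others. Most of that difference was in a pair of RNAs: LINC00657 and LINC00261 made up 42.5% ± 0.82 of the sum in untreated cells and 21.5% ± 2.1 with GO-Rg3-DOX, and the remaining 120 summed to 547 ± 10 and 415 ± 8.6 CPM. In these bulk samples, fewer cells that make an RNA and less of it per cell cannot be told apart.

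**Figure D1:**
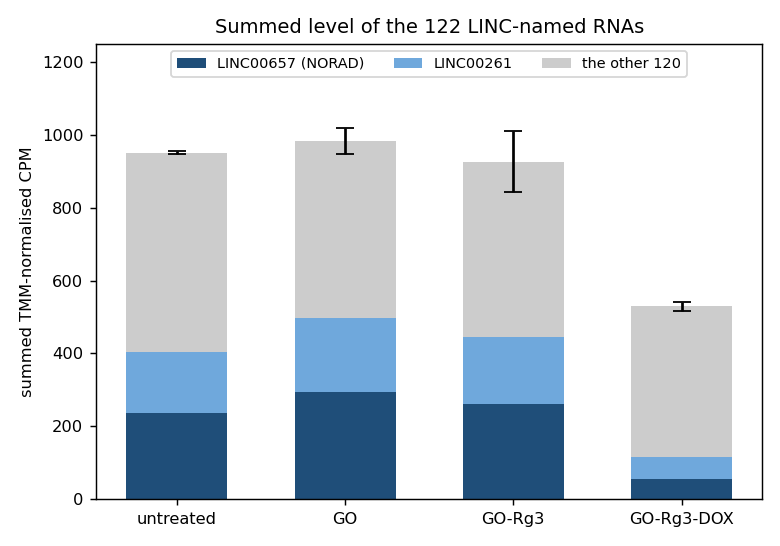
Summed level of the 122 LINC-named RNAs (TMM-normalised CPM) in the 4 groups, as the mean of 3 samples; error bars are the SD of the sum, and colours divide each bar into LINC00657, LINC00261 and the other 120. The bar for GO-Rg3-DOX reaches 530 CPM against 927 to 984 in the other groups, and its 2 coloured parts are the shortest.

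Which RNAs differed was examined with edgeR's quasi-likelihood test over all 17092 genes. A gene was called at a Benjamini-Hochberg adjusted p below 0.01 and a log2 fold change beyond 1 in either direction. The labels do not say that the 3 samples of a group came from separate cultures, so p-values measure the spread between these samples. With GO, 12 LINC RNAs were called higher than in untreated cells (9.84% of the 122, against 3.84% of all genes tested) and 5 were called lower (4.10%, against 2.62%). With GO-Rg3, 0 were called in either direction, where 0.0117% of all genes were called higher and 0.0468% lower. With GO-Rg3-DOX, 13 were called higher (10.7%, against 12.6%) and 22 lower (18.0%, against 18.2%), shares close to those of all genes. Comparing GO-Rg3 with GO directly, 1 was called higher (0.820%, against 0.702%) and 5 lower (4.10%, against 2.07%). In every call the 3 samples of one group lay outside the range of the other. Calls were chosen on these same samples, so this is a description and no separate support.

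The median log2 fold change of the 122 was 0.08 with GO, -0.07 with GO-Rg3 and -0.23 with GO-Rg3-DOX, where the medians of all genes were 0.01, -0.00 and -0.06. Scaled by library totals alone, which moved the median of all genes with GO-Rg3-DOX to -0.47, 8 LINC RNAs were called higher and 37 lower, where 1029 of all genes were higher and 4937 lower. Of the 13 called higher, 3 (LINC00202-1, LINC00634 and LINC00854) would not have passed the count rule without the GO-Rg3-DOX samples, and of the 22 called lower LINC01096 would not have passed without the untreated ones. Without untreated replicate 1, and likewise without untreated replicate 3, 7 were called higher with GO. Without GO-Rg3 replicate 2, 3 were called lower in GO-Rg3 than in GO, and without GO replicate 2, 3 were called higher. Without GO replicate 1, 10 were called higher and 5 lower with GO. Leaving out GO-Rg3-DOX replicate 1 gave 14 higher and 19 lower with GO-Rg3-DOX. Shares of all genes called with a sample left out are not given here, so these counts cannot be read as particular to LINC RNAs. Low levels limited precision: the median standard error of the log2 fold change with GO was 0.34 for the 61 RNAs below the median level and 0.17 for the other 61. With GO-Rg3-DOX the 61 lower-level RNAs had 8 calls higher and 6 lower, and the 61 higher-level ones had 5 higher and 16 lower. Shares of all genes by level are not given here.

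**Figure D2:**
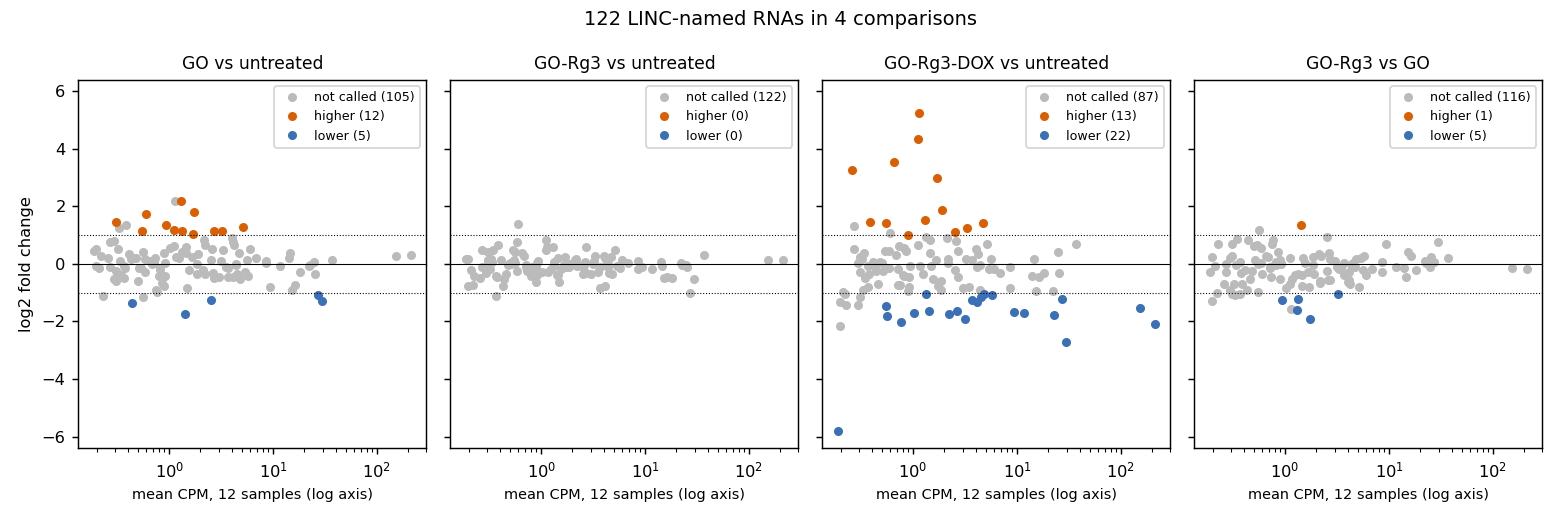
Log2 fold change of each of the 122 LINC-named RNAs (y axis) against its mean CPM over the 12 samples (log x axis) in 4 comparisons; orange points were called higher, blue lower and grey not called, and dotted lines mark a log2 fold change of 1 in either direction. No point is coloured for GO-Rg3 against untreated cells, while 13 orange and 22 blue points are seen for GO-Rg3-DOX, among the blue both RNAs at the right edge.

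NORAD was the LINC RNA with the highest CPM in untreated cells. It was at 233, 237 and 237 CPM in the untreated samples, 248, 317 and 316 with GO, 225, 303 and 254 with GO-Rg3, and 44.4, 57.1 and 66.6 with GO-Rg3-DOX. Every GO-Rg3-DOX sample was below every other sample, and the GO and GO-Rg3 values overlapped. Against untreated cells it fell by 2.07 on the log2 scale with GO-Rg3-DOX (SE 0.15, adjusted p = 1.5e-08), whereas the difference with GO was 0.32 (SE 0.14, adjusted p = 0.088). PUM2, which encodes a protein it binds, fell with GO-Rg3-DOX from 99.4 ± 2.2 to 23.8 ± 1.7 CPM (log2 fold change -2.06, adjusted p = 4.9e-09). It was not called with GO, where it was at 87.0 ± 18 CPM.

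LINC00261 is a liver and endoderm RNA whose gene lies beside FOXA2, the gene of a transcription factor that directs liver development (LINC00261 at GRCh37 chr20:22528301-22559280, minus strand, 2356 bases from FOXA2). It measured 178, 163 and 166 CPM in untreated cells, 175, 223 and 214 with GO, 170, 204 and 180 with GO-Rg3, and 55.9, 59.2 and 59.4 with GO-Rg3-DOX. The 3 GO-Rg3-DOX samples were tightly grouped far below the rest. The RNA fell by 1.54 on the log2 scale (SE 0.11, adjusted p = 1.1e-08), and FOXA2 fell by 1.32 (adjusted p = 1.5e-06), from 46.9 ± 1.2 to 18.7 ± 0.43 CPM. With GO, FOXA2 was at 75.3 ± 17 CPM (log2 fold change 0.68, adjusted p = 0.0016), below the fold threshold, and LINC00261 at 204 ± 26. It was the only one of the 4 liver and endoderm RNAs listed that was kept by the count rule. Of the 8 liver markers, APOA1, APOB and SERPINA1, which encode secreted plasma proteins, were called higher with GO-Rg3-DOX, and HNF4A, a transcription factor of hepatocytes, lower (log2 fold change -1.02).

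**Figure D3:**
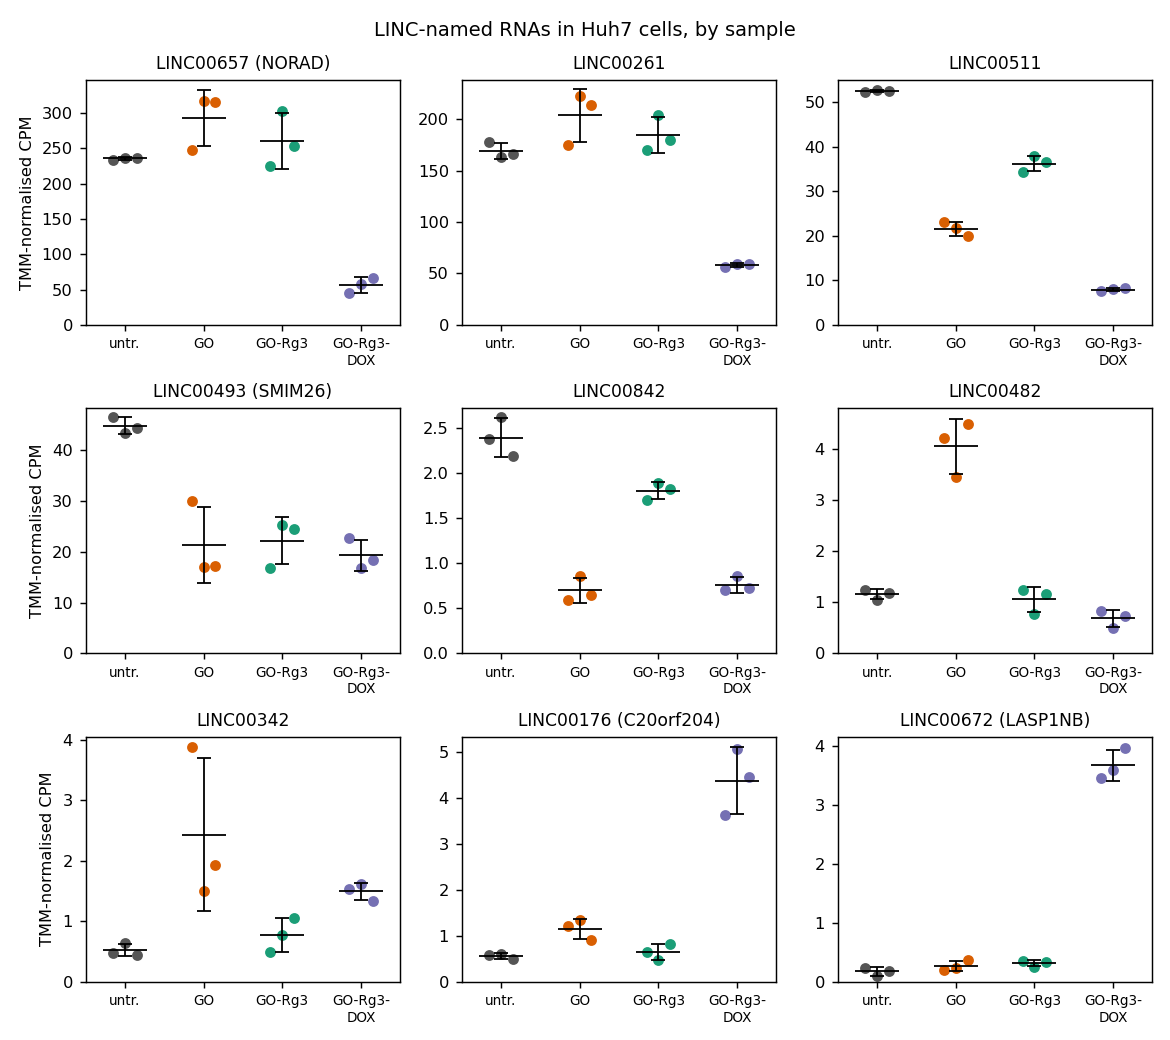
Level of 9 LINC-named RNAs (TMM-normalised CPM, linear axes from 0) in each of the 12 samples; each dot is a sample, and the bars are the mean and SD of 3. LINC00657, LINC00261 and LINC00511 were lowest with GO-Rg3-DOX, LINC00482 was highest with GO, and LINC00176 and LINC00672 were highest with GO-Rg3-DOX.

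LINC00511, a transcript studied in several cancers for its part in cell proliferation, fell with GO and with GO-Rg3-DOX. It measured 52.2, 52.7 and 52.5 CPM in untreated cells and 34.4, 37.8 and 36.4 with GO-Rg3, then 23.1, 21.7 and 20.0 with GO and 7.54, 8.05 and 8.16 with GO-Rg3-DOX. No 2 groups overlapped. It fell by 1.28 on the log2 scale with GO (SE 0.09, adjusted p = 2.2e-07) and by 2.73 with GO-Rg3-DOX (SE 0.10, adjusted p = 4.4e-11). With GO-Rg3 the difference from untreated cells was -0.54 (SE 0.09, adjusted p = 0.013) and was not called. SLC39A11, its nearest coding gene at 5477 bases, had log2 fold changes of 0.03 with GO and 0.85 with GO-Rg3-DOX and was called in neither.

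Of the 16 LINC RNAs listed as studied in cancer or stress, 8 were kept by the count rule. With GO, 1 of the 8 was called lower (LINC00511), and with GO-Rg3-DOX 4 were called lower (LINC00657, LINC00511, LINC00339 and LINC00662) and 1 higher, where 2.62% of all genes were called lower with GO, and 18.2% lower and 12.6% higher with GO-Rg3-DOX. LINC00339, which lies near CDC42, was at 14.8 ± 0.66 CPM in untreated cells and 4.61 ± 0.58 with GO-Rg3-DOX, and fell by 1.69 on the log2 scale (SE 0.13, adjusted p = 2.8e-08). Its exons overlap those of another coding gene on the same strand, so its counts are uncertain. CDC42, which encodes a GTPase of the cytoskeleton, was at 367 ± 1.3 and 444 ± 62 CPM and was not called. LINC00662 fell by 1.03 (SE 0.15, adjusted p = 2e-05), from 6.48 ± 0.31 to 3.16 ± 0.47 CPM, but close enough to the threshold that the call was lost under 6 other settings. LINC00982, which starts 77 bases from PRDM16 in a head-to-head arrangement, was the one called higher, at 2.21 ± 0.26 CPM in untreated cells and 5.26 ± 0.93 with GO-Rg3-DOX (log2 fold change 1.25, SE 0.27, adjusted p = 0.00075); the call was lost with library totals alone. The other 3 of the 8, LINC00152 (CYTOR), LINC00963 and LINC00312, were not called in these comparisons, at 21.7 ± 0.31, 23.0 ± 0.84 and 1.17 ± 0.022 CPM in untreated cells and 17.4 ± 2.2, 30.7 ± 4.5 and 1.12 ± 0.13 with GO-Rg3-DOX.

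Several LINC loci encode short proteins. LINC00493, now SMIM26, encodes a small mitochondrial membrane protein. It measured 46.6, 43.4 and 44.5 CPM in untreated cells, 30.0, 16.9 and 17.2 with GO, 16.9, 25.3 and 24.4 with GO-Rg3 and 22.8, 16.9 and 18.3 with GO-Rg3-DOX. All 9 treated samples were below all 3 untreated ones, and the treated groups overlapped each other. It fell by 1.07 on the log2 scale with GO (SE 0.20, adjusted p = 0.00073) and by 1.22 with GO-Rg3-DOX (SE 0.20, adjusted p = 8.6e-05), and was at -1.02 with GO-Rg3 (SE 0.20, adjusted p = 0.024), which was not called. The GO call was lost without GO replicate 2 or 3, and both calls were lost with an offset for GC content. Its exons overlap those of another gene on the same strand, so its counts are uncertain.

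Of the 13 loci listed as sources of short proteins, 7 were kept. LINC00493 was the only one of them called, lower in GO and in GO-Rg3-DOX (2.62% and 18.2% of all genes). LINC00672, LINC00176, LINC00634 and LINC00514, outside the list and named because they were called, are also typed as protein-coding in GENCODE 44. All were called higher with GO-Rg3-DOX (12.6% of all genes), and LINC00176 also with GO (3.84%). Not every such locus rose: LINC00483 (ANKRD40CL), also outside the list and typed as protein-coding, was not called with GO-Rg3-DOX (log2 fold change -0.75). LINC00998, now SMIM30, was at 22.0 ± 0.90 CPM in untreated cells, 11.8 ± 1.5 with GO, 15.7 ± 2.8 with GO-Rg3 and 11.4 ± 0.66 with GO-Rg3-DOX. Its log2 fold changes with GO (-0.91, SE 0.13, adjusted p = 0.00012) and GO-Rg3-DOX (-0.95, SE 0.14, adjusted p = 1.9e-05) passed the p threshold but not the fold threshold. LINC00116 (MTLN, whose product mitoregulin acts in mitochondria) was at 4.32 ± 0.39 CPM in untreated cells and 4.68 ± 0.32 with GO-Rg3-DOX, and at 3.20 ± 1.0 with GO and 2.41 ± 0.68 with GO-Rg3 (log2 fold change -0.83 with GO-Rg3, adjusted p = 0.074). LINC00984 was at 3.47 ± 0.46 in untreated cells, 5.54 ± 0.52 with GO (log2 fold change 0.67, adjusted p = 0.0024, within the fold threshold) and 4.42 ± 0.47 with GO-Rg3-DOX. LINC00467 was at 5.10 ± 0.29 in untreated cells, 3.71 ± 0.62 with GO, 3.01 ± 0.76 with GO-Rg3 (log2 fold change -0.76, adjusted p = 0.048) and 4.72 ± 0.47 with GO-Rg3-DOX. In untreated cells and with GO-Rg3-DOX, LINC00094 was at 6.90 ± 0.20 and 5.53 ± 0.59, and LINC00087 at 0.484 ± 0.12 and 0.287 ± 0.19. None of the listed loci other than LINC00493 was called in any comparison.

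Transcripts that host small RNAs in their introns were represented by 2 of the 5 listed. LINC00338 (SNHG20), a snoRNA host, fell by 1.62 on the log2 scale with GO-Rg3-DOX (SE 0.23, adjusted p = 1.5e-05), from 3.35 ± 0.27 to 1.09 ± 0.32 CPM. Its exons overlap those of SEC14L1 on the same strand, which was at -0.25. LINC00478 (MIR99AHG), the host of a microRNA cluster, was at 1.29 ± 0.17 and 0.660 ± 0.26 CPM and was not called.

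Several RNAs outside these lists were also lower with GO-Rg3-DOX. LINC00654 fell by 1.76 on the log2 scale (SE 0.15, adjusted p = 7.7e-08), with 29.2, 27.2 and 27.5 CPM in untreated cells and 7.05, 8.27 and 9.49 with GO-Rg3-DOX. LINC00958 fell by 1.68 (SE 0.13, adjusted p = 2.1e-08), with 12.6, 13.1 and 14.5 CPM against 4.70, 4.24 and 3.58. Neither pair of groups overlapped. LINC00958 was at 7.36, 8.24 and 7.56 CPM with GO, where its log2 fold change of -0.79 (adjusted p = 0.00012) stayed within the fold threshold. LINC00847 fell by 1.92 (SE 0.20, adjusted p = 8.7e-07), from 3.80 ± 0.58 to 0.998 ± 0.21 CPM, LINC00680 by 1.73, LINC01124 by 1.71, LINC00883 by 1.82 and LINC01090 by 2.03, with untreated means between 0.828 and 2.89 CPM; the call of LINC00883 was lost with an offset for GC content. LINC01096 had 11, 10 and 2 counts in the untreated samples and none in the 3 GO-Rg3-DOX samples, so it was at least 1.90-fold lower against a floor of 3 counts per library. This bound covers counting error only, and the call was lost when any of 5 of the 6 samples was left out. The rest of the 22 were LINC00205, LINC00242, LINC00501, LINC00526, LINC00649, LINC00842 and LINC00909. Among these the call of LINC00242 was lost when any of 4 of the 6 samples was left out, that of LINC00501 when either of 2 was, and that of LINC00909 without GO-Rg3-DOX replicate 1 and with an offset for GC content.

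Of the 10 LINC RNAs with the highest mean CPM, some were not called lower. LINC00641 was at 29.9 ± 3.5 CPM in untreated cells and 47.8 ± 2.5 with GO-Rg3-DOX (log2 fold change 0.68, adjusted p = 6.3e-05), below the fold threshold. LINC00667 was at 28.6 ± 1.0 and 22.9 ± 3.2 CPM and was not called. LINC00969, at 25.6 ± 3.4 and 13.3 ± 1.4 CPM, had a log2 fold change of -0.94, just within the fold threshold, and was not called. Its exons overlap those of MUC20 on the same strand, which was called higher (2.15), so its counts are uncertain.

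Many of the RNAs called higher with GO-Rg3-DOX were at low levels in untreated cells. The 11 of them that were placed had a median of 0.561 CPM there, against 1.32 over all 113 placed. Not all were low, as LINC00863 was at 1.95 and LINC00982 at 2.21 CPM. LINC00672, annotated as LASP1NB and lying 3398 bases from LASP1, went from 0.238, 0.0959 and 0.188 CPM in untreated cells to 3.46, 3.59 and 3.97 with GO-Rg3-DOX. With GO it was at 0.196, 0.241 and 0.368 CPM, and with GO-Rg3 at 0.351, 0.257 and 0.335. Every GO-Rg3-DOX sample stood far above every other sample, and the other groups overlapped in part. It rose by 4.33 on the log2 scale (SE 0.27, adjusted p = 2.8e-09), and LASP1, an actin-binding protein gene, was at 0.52 and was not called. LINC00176 (C20orf204), named in several studies of liver cancer cells, rose by 2.97 (SE 0.23, adjusted p = 2.6e-08), with 0.582, 0.607 and 0.495 CPM in untreated cells and 3.63, 5.07 and 4.46 with GO-Rg3-DOX. It also rose with GO by 1.04 (SE 0.25, adjusted p = 0.0044), at 1.21, 1.34 and 0.905 CPM, a call lost with library totals alone, with an offset for GC content and when any of 5 of the 6 samples was left out, while with GO-Rg3 it was at 0.649, 0.482 and 0.824 CPM and overlapped the untreated samples.

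LINC00854, LINC00202-1 and LINC00634 entered through the count rule only with the samples in which they were high, so their differences were partly built in and are given as a description. LINC00854 was at 0.132, 0.0639 and 0.0942 CPM in untreated cells and 5.11, 3.99 and 2.36 with GO-Rg3-DOX, a log2 fold change of 5.22. In the GO samples it was at 1.14, 0.134 and 0.255 CPM, so that GO replicate 1 stood above the other 2. Its exons overlap those of TMEM106A on the opposite strand (GRCh37, chr17:41368960-41383338 for LINC00854). TMEM106A was at 0.0575 ± 0.036 CPM in untreated cells and 2.33 ± 0.25 with GO-Rg3-DOX, a log2 fold change of 5.33. Whether the counting used the strand is not given in the sources used here, so reads of these 2 genes cannot be told apart.

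LINC00202-1 was at 0.0794, 0.320 and 0.141 CPM in untreated cells and 2.10, 2.05 and 1.91 with GO-Rg3-DOX (log2 fold change 3.52). LINC00634 (SMIM45, another short-protein locus) had 4, 2 and 3 counts in untreated samples and 11, 26 and 26 with GO-Rg3-DOX (log2 fold change 3.25). LINC00926 rose by 1.86 (SE 0.22, adjusted p = 2.6e-06), from 1.09 ± 0.37 to 4.01 ± 0.64 CPM, and LINC01125, which starts 173 bases from ACTR1B on the opposite strand, rose by 1.41 (SE 0.21, adjusted p = 3e-05), from 3.05 ± 0.50 to 8.05 ± 2.2 CPM. LINC00514 rose by 1.40 (SE 0.29, adjusted p = 0.0006), a call lost with library totals alone. LINC00342 was called too (log2 fold change 1.53), a call lost without untreated replicate 3 or GO-Rg3-DOX replicate 2, and its levels are given with the GO results. The remaining calls were LINC00324, LINC00610 and LINC00863, of which LINC00324 lost its call when any of 3 of the 6 samples was left out, LINC00610 when any of 4 was and LINC00863 without GO-Rg3-DOX replicate 3, and all 3 with library totals alone. LINC00863 shares exons on the same strand with NUTM2D, which was also called higher (1.49).

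With GO, the highest fold was that of LINC00342, whose level varied among the GO samples. It was at 0.476, 0.639 and 0.447 CPM in untreated cells and 3.88, 1.50 and 1.92 with GO, where replicate 1 was the highest. With GO-Rg3 it was at 0.487, 0.771 and 1.06 CPM and with GO-Rg3-DOX at 1.52, 1.62 and 1.33. It rose by 2.20 on the log2 scale with GO (SE 0.36, adjusted p = 0.00024), and was lower in GO-Rg3 than in GO by 1.61 (SE 0.34, adjusted p = 0.0031), a call lost without GO-Rg3 replicate 2 and when only the 6 samples compared were fitted. ANKRD36C, its nearest coding gene at 1916 bases, was not called.

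LINC00482 was high in GO samples, at 4.23, 3.45 and 4.50 CPM. In untreated cells it was at 1.24, 1.05 and 1.18 CPM, with GO-Rg3 at 1.24, 0.771 and 1.16, and with GO-Rg3-DOX at 0.824, 0.503 and 0.724. The GO-Rg3 samples overlapped the untreated ones and none came near the GO samples. It rose by 1.80 with GO (SE 0.20, adjusted p = 1.2e-05), and GO-Rg3 was lower than GO by 1.92 (SE 0.20, adjusted p = 1.7e-05). LINC00265, studied in several tumours, gave a like picture: 2.40 ± 0.16 CPM in untreated cells, 5.28 ± 0.67 with GO and 2.54 ± 0.36 with GO-Rg3. It rose by 1.14 with GO (SE 0.15, adjusted p = 4.8e-05), and GO-Rg3 was lower than GO by 1.06 (SE 0.15, adjusted p = 0.00022), the first lost with an offset for GC content and the second with that offset, with library totals alone and without GO replicate 3 or GO-Rg3 replicate 2. RALA, the nearest coding gene to LINC00265, at 25310 bases, was called in the other direction with GO (log2 fold change -1.02).

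LINC00694 and LINC00910 were also higher with GO and lower in GO-Rg3 than in GO. LINC00694 was at 0.661, 0.671 and 0.659 CPM in untreated cells, 2.19, 1.31 and 1.64 with GO and 0.811, 0.707 and 0.618 with GO-Rg3, and its exons overlap those of ZNF445 on the same strand. Its call between GO-Rg3 and GO was lost without GO-Rg3 replicate 3 and when only the 6 samples compared were fitted. LINC00910 was at 0.889 ± 0.19, 1.94 ± 0.051 and 0.840 ± 0.068 CPM in the same order, and was at 1.69 ± 0.37 with GO-Rg3-DOX; its call with GO was lost without untreated replicate 3. LINC00341 rose by 1.28 with GO (SE 0.18, adjusted p = 9.5e-05), from 3.20 ± 0.31 to 7.84 ± 2.4 CPM, LINC00622 by 1.73 (SE 0.31, adjusted p = 0.00048), LINC00852 by 1.15 and LINC00685 by 1.17. LINC00852, whose exons overlap those of GHRL on the opposite strand, lost its call when any of 3 of the 6 samples was left out, and LINC00685 when any of 5 was. The remaining calls with GO were LINC00176, LINC00501 and LINC00999, the last lost when any of 5 of the 6 samples was left out.

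**Figure D4:**
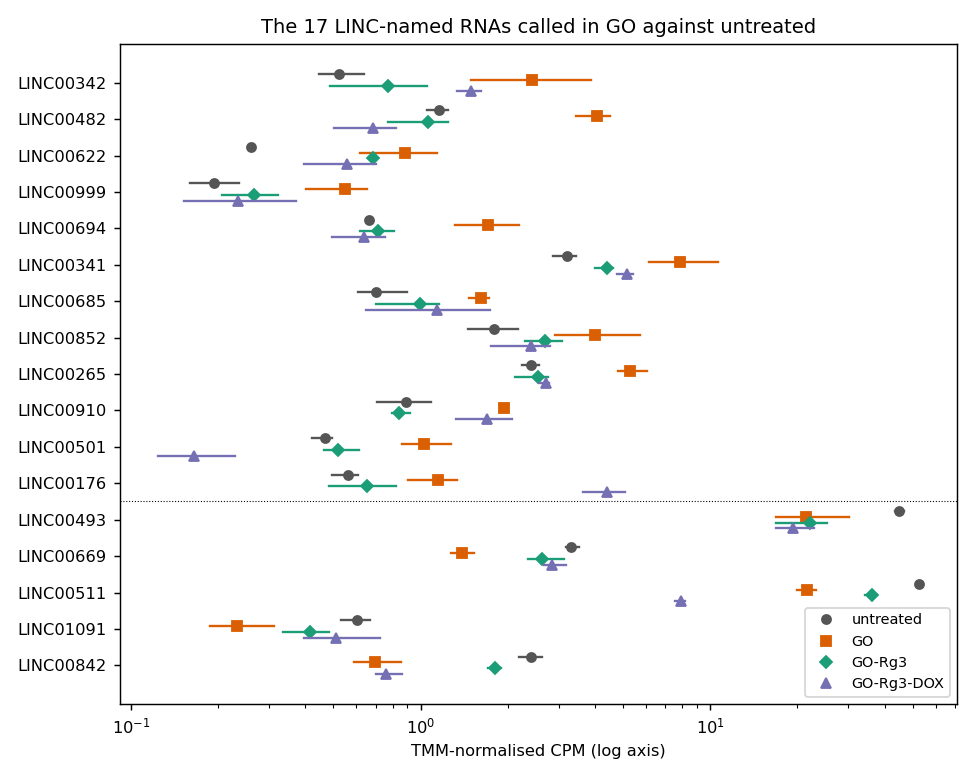
Levels (TMM-normalised CPM, log axis) of the 17 LINC-named RNAs called in GO against untreated cells, the 12 higher ones above the dotted line and the 5 lower ones below; symbols are means of 3 samples and lines run from the lowest to the highest sample. GO squares sit apart from the grey untreated points in every row, and green GO-Rg3 diamonds for LINC00482, LINC00265 and LINC00910 lie by the untreated points.

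The 5 RNAs called lower with GO were LINC00511 and LINC00493, described above, with LINC00842, LINC00669 and LINC01091. LINC00842 was at 2.38, 2.62 and 2.19 CPM in untreated cells, 0.587, 0.856 and 0.651 with GO, 1.70, 1.90 and 1.83 with GO-Rg3 and 0.700, 0.863 and 0.724 with GO-Rg3-DOX. The GO and GO-Rg3-DOX samples overlapped at the bottom, and those with GO-Rg3 lay between them and the untreated samples. It fell by 1.75 with GO (SE 0.19, adjusted p = 1.1e-05) and by 1.64 with GO-Rg3-DOX (SE 0.20, adjusted p = 3e-06), and was the only one of the 122 called higher in GO-Rg3 than in GO (log2 fold change 1.35, SE 0.20, adjusted p = 0.00029). Its exons overlap those of ANXA8L1, a gene with near-identical copies, so its counts are uncertain. LINC00669 fell by 1.26 with GO (SE 0.17, adjusted p = 5e-05), from 3.31 ± 0.18 to 1.39 ± 0.13 CPM, and was at 2.83 ± 0.29 with GO-Rg3-DOX; the call was lost with an offset for GC content. That of LINC01091 was lost with the same offset and when any of 5 of the 6 samples was left out.

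Between GO-Rg3 and untreated cells, 0 LINC RNAs were called by edgeR and 0 by DESeq2. At an unadjusted p below 0.05 by edgeR, 6 were higher and 15 lower. The share of all genes at that level is not given here, so these counts cannot be read as particular to LINC RNAs. The smallest adjusted p were those of LINC00511 (0.013), LINC00493 (0.024) and LINC00622 (0.043), the last at 0.682 ± 0.018 CPM against 0.260 ± 0.0044 in untreated cells and 0.886 ± 0.26 with GO. The comparison of GO with untreated cells and that of GO-Rg3 with GO share the GO samples, so the levels of the RNAs named in both are given side by side above. A difference that was not called does not show that levels were alike.

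LINC00501, picked out after its values were seen, was called in opposite directions. It was at 0.423, 0.480 and 0.495 CPM in untreated cells, 0.862, 0.936 and 1.27 with GO, and 0.124, 0.144 and 0.229 with GO-Rg3-DOX, and the 3 groups did not overlap. Its log2 fold change was 1.14 with GO (SE 0.26, adjusted p = 0.0025) and -1.47 with GO-Rg3-DOX (SE 0.37, adjusted p = 0.0024). The call with GO was lost when any of 3 of the 6 samples was left out, and that with GO-Rg3-DOX without GO-Rg3-DOX replicate 1 or 2. TBL1XR1, its nearest coding gene at 66442 bases, was at 120 ± 5.6 CPM in untreated cells, 162 ± 3.2 with GO and 33.8 ± 0.94 with GO-Rg3-DOX, and was called with GO-Rg3-DOX (log2 fold change -1.83).

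As many LINC RNAs lie beside coding genes, the neighbours were examined. Of the 113 placed genes, 24 shared exon positions with a coding gene, 11 on the same strand and 14 on the opposite one, and 10 started head to head within 1000 bases of a coding gene. All 22 RNAs called lower with GO-Rg3-DOX were placed, and the nearest coding gene was tested for 17 of them. It was called for 6, each time in the same direction. These were FOXA2, TBL1XR1, ZFP62 beside LINC00847 (-2.52) and TEAD1 beside LINC00958 (-1.27). The others were SP5 beside LINC01124 (-1.15) and ZNF407 (-1.09), whose span overlaps that of LINC00909 without shared exon positions. SP5 starts 770 bases from LINC01124, head to head. Of the 13 called higher, the nearest coding gene was tested for 10 and called for 3, TMEM106A and NUTM2D in the same direction and TCF12 beside LINC00926 in the other (-1.41). With GO, neighbours were tested for 10 of the RNAs called higher and 2 of those called lower, and RALA was the only one called. The shares of all genes called with GO-Rg3-DOX, given above, are not those of neighbours. Nearest coding genes of RNAs that were not called with GO-Rg3-DOX were called too, some lower and some higher. Among the lower ones were CDX2, nearest to LINC00543 (-4.07), and SPRY1, nearest to LINC01091 (-2.95). Their share is not given here, so the counts above cannot be read as particular to the called RNAs.

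The called RNAs were compared by transcript composition, which the choice of genes did not use. The median GC content was 48.8% over the 113 placed RNAs and 48.4% over the tested genes with a value. It was 51.7% in 11 of the 12 called higher with GO and 44.3% in the 5 called lower, 52.8% in 11 of the 13 called higher with GO-Rg3-DOX and 48.8% in the 22 called lower. The 5 lower in GO-Rg3 than in GO had a median of 56.5%. The median transcript was 1812 bases with 3 exons in the LINC RNAs and 2792 bases with 7 exons in all genes tested.

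Long noncoding RNAs with other names gave a mixed picture. Of 20 listed, 16 were tested under the listed name. CYTOR and NORAD, also on the list, are counted here under their LINC names, LINC00152 and LINC00657, and are described above. With GO, 3 of them were higher and 1 lower by edgeR's adjusted p alone, none beyond the fold threshold. With GO-Rg3-DOX, H19 (log2 fold change 1.62, adjusted p = 0.00015) and KCNQ1OT1 (1.08, adjusted p = 0.00062), both from imprinted regions, were called higher. HULC, an RNA abundant in liver cancer, fell by 1.32 (adjusted p = 0.00016), and GAS5, a snoRNA host, fell by 1.49 (adjusted p = 5.5e-07), from 209 ± 21 to 74.2 ± 1.2 CPM. MALAT1 and NEAT1, RNAs of nuclear speckles and paraspeckles, had log2 fold changes of 0.96 and 0.97 with GO, just within the fold threshold. NEAT1 had a log2 fold change of -0.93 with GO-Rg3-DOX (adjusted p = 1.1e-05), also within it.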

How the data were processed

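RNA was measured in 12 Huh7 samples. The authors made stranded libraries of polyadenylated RNA, aligned reads to GRCh37 within the NGI-RNAseq pipeline, and tallied them over Ensembl genes using featureCounts. What they deposited is the raw count of each gene and sample, not normalized; the annotation release and strand setting are not given in the sources used here. Groups and replicate numbers came from the sample labels. Counts were scaled by TMM and fitted with the quasi-likelihood test of edgeR 4.0.16 (R 4.3.3) over all 12 samples, on genes that reached 10 counts in 3 or more samples, with Benjamini-Hochberg adjustment over 17092 genes. The fit was tested on simulated data. The members and gene lists were chosen with earlier results of these data known. RNAs were named by level, by rank among called members at 0.5 CPM or more without overlap (8 in each direction), by list, by counts of 3 or fewer, and by neighbourhood. Positions and GC content came from GENCODE 44 on GRCh37, and promoters from RefSeq. Alternatives included RLE scaling, library totals, other filters, DESeq2 1.42.0, a replicate block, a GC content offset, each sample left out and other thresholds. An item among the genes examined is not reported here.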

Additional observations from a re-analysis of the deposited data

How the results depend on the processing

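The 58 calls of LINC RNAs were checked in 797 pairs of a call and another setting. None of these pairs changed direction, and in 84 the call was lost. Of the 58 calls, 32 held under every setting in which the RNA was tested. RNAs without 10 counts in every sample were not tested under that filter. Requiring an adjusted p below 1e-04 left 3 higher and 3 lower with GO, 8 higher with GO-Rg3-DOX, and 0 higher and 1 lower in GO-Rg3 against GO. At 0.05, GO-Rg3 gave 1 higher and 1 lower, and GO-Rg3 against GO 2 higher. Without a fold threshold, 10 were lower with GO, and 4 higher and 9 lower in GO-Rg3 against GO. Library totals alone gave 8 higher and 37 lower with GO-Rg3-DOX (1029 and 4937 of all genes) and 2 higher in GO-Rg3 against GO; without a count filter GO-Rg3 had 1 lower, and GO-Rg3 against GO 2 higher. Requiring 10 counts in every sample, which tests fewer genes, left 7 higher with GO-Rg3-DOX. A GC content offset left 3 lower with GO, and the 6 compared samples alone 3 lower in GO-Rg3 against GO. Leaving out 1 sample gave 7 to 11 higher with GO (7 without untreated replicate 1 or 3), 1 to 3 higher in GO-Rg3 against GO (3 without GO replicate 2) and 3 to 6 lower (3 without GO-Rg3 replicate 2). Causes were not tested beyond the construction of each setting. Except for library totals with GO-Rg3-DOX, shares of all genes under these settings are not given here, so the counts do not single out LINC RNAs. Same-numbered samples did not all deviate together (18 correlations from -0.02 to 0.25), and no label gives the numbers a meaning. With a replicate block, 13 were higher and 7 lower with GO, 14 and 22 with GO-Rg3-DOX, 0 and 0 with GO-Rg3, and 1 and 5 in GO-Rg3 against GO. Low counts limit the least abundant RNAs, and the floor of 3 counts covers counting error only.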
